A study of Mus musculus with 8 samples.

Results

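The Rab genes encode small GTPases that direct vesicle traffic between the membranes of a cell. They were taken here as the genes whose only symbol in the array annotation is Rab followed by a number and an optional letter. This gave 59 of 18193 genes. Each gene was represented by 1 probe set, chosen by the highest mean log2 signal over all 8 arrays, a value that does not use the genotype labels. Of the 59 genes, 42 had a mean signal above the filter and entered the test of 11062 genes, and 17 were dimmer.

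A Rab protein works as a switch. An exchange factor loads it with GTP on a membrane, where it binds effectors that tether, move or fuse vesicles, and a GTPase-activating protein returns it to the GDP form, which a GDP dissociation inhibitor extracts and recycles. Each Rab marks particular membranes, and in skeletal muscle the family is best known for moving the glucose transporter GLUT4 to the fibre surface and for carrying cargo from endosomes and autophagosomes to lysosomes.

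RNA came from gastrocnemius, the large muscle of the calf, of mice on the C57/Bl6J background, with 1 Affymetrix array per sample. The WT group (4 arrays) was labelled wild type and the GRKO group (4 arrays) GR KO, a knockout of the glucocorticoid receptor, which the design text calls GR(i)skm-/-. The comparison asks which transcripts of the muscle differ between receptor knockout and wild type. The sources used here do not give age, sex, treatment or the driver of the knockout. Nothing in the labels ties the arrays to different animals. The p-values therefore reflect only how far these samples scatter, and part of that scatter may be technical. Values are signals on a linear scale, and differences are log2 fold changes of GRKO against WT from limma with their standard error (SE).

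The median signal of an array ran from 18 on GRKO 4 to 26 on WT 4. Nr3c1, which encodes the receptor, had signals of 377, 307, 307 and 352 on the WT arrays and 134, 79, 76 and 94 on the GRKO arrays at probe set 1460303_at (log2 fold change -1.84), while its brightest probe set, 1421867_at, overlapped between the groups (log2 fold change -1.07). WT 4 stood apart in the fibre markers, with the highest fast fibre sum (248381, against 110376 to 124540 on the other WT arrays and 102569 to 163198 in GRKO) and the lowest slow fibre sum (5994, against 10659 to 20276 and 12955 to 15546). With all arrays 9 of 10 fast markers were lower and 6 of 6 slow markers higher in GRKO (medians -0.09 and 0.38). Without WT 4, a comparison added after these sums had been seen, all 10 fast markers were higher and 4 of the 6 slow markers lower (medians 0.18 and -0.04), so no fibre type direction is read here. Endothelial markers were higher for 9 of 10 genes (median 0.37), and their sums did not overlap (3751 to 4573 in WT, 4761 to 6548 in GRKO). Fibroblast and matrix markers were higher for 8 of 10 genes (median 0.46), with overlapping sums. Without WT 4 the same counts held for both lists, with medians of 0.25 and 0.24. No marker of these 4 lists was at 0 on any array. Macrophage, adipocyte, Schwann cell, smooth muscle and erythrocyte sums overlapped between the groups, and of their markers only Nefm was at 0, on 3 arrays. Of their tested markers, 6 of 8 macrophage and 2 of 3 adipocyte ones were lower. All 4 Schwann cell (median 0.35), 5 of 7 smooth muscle and 2 of 2 erythrocyte markers were higher. Without WT 4 these last 3 counts held (Schwann cell median 0.22). Macrophage markers were then 4 lower and 4 higher, and 2 of 3 adipocyte markers were higher. The part of these shifts in the Rab values was not tested. In whole muscle, fewer cells of a type and less RNA per cell cannot be told apart.

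No Rab gene passed the adjusted threshold of 0.05 in limma with Benjamini-Hochberg adjustment over all 11062 genes. The nearest was Rab7, the late endosomal Rab, at an adjusted p of 0.0822, the gene with the 8th smallest p of all. Of all genes tested 6 passed, all lower in GRKO, which is 0.0542%. At an unadjusted p under 0.05, 4 Rab genes were lower, 9.52% of the 42 against 2.26% of all genes tested, and 2 were higher, 4.76% against 2.37%. The 4 were Rab7, Rab12, Rab2a and Rab18, and the 2 were Rab5c and Rab6a.

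All 4 GRKO signals lay below all 4 WT signals for 2 Rab genes, Rab7 and Rab12, which is 4.76% of the 42 against 1.29% of all genes. For 0 of the 42 did all 4 GRKO signals lie above, against 1.28% of all genes. Most of the family sat close to 0. The median log2 fold change of the 42 was -0.05, beside 0.01 for all genes, and 26 of them (61.9%, against 58.4% of all genes) were within 0.2 of 0. Log2 fold changes ran from -0.84 for Rab7 to 0.53 for Rab5c, and 5 genes exceeded 0.5 in size (11.9%, against 6.75%). By sign, 26 were lower and 16 higher, so 61.9% were lower, against 47.8% of all genes.

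**Figure D1:**
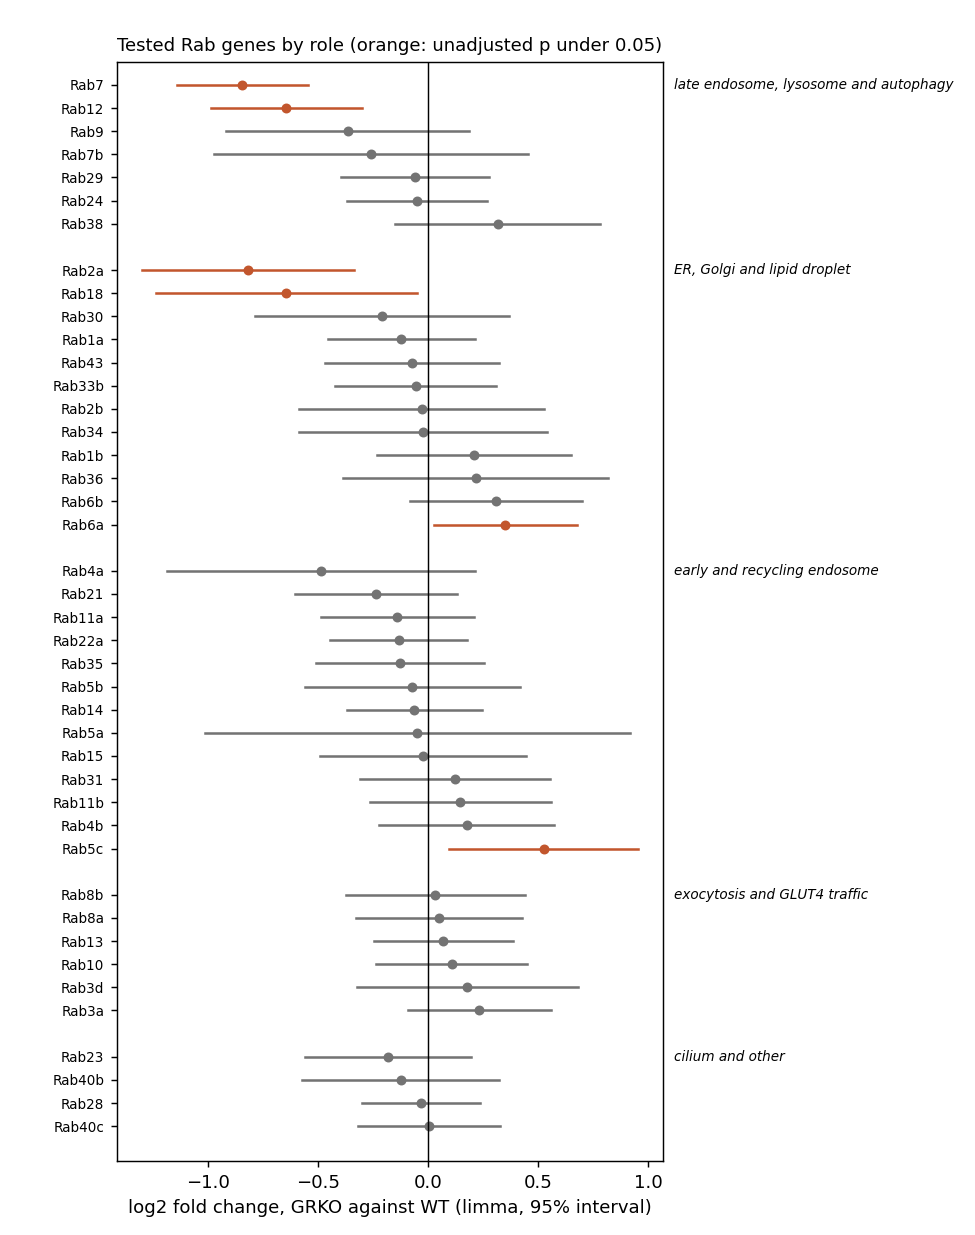
Log2 fold change of GRKO against WT (x axis, limma estimate as a point, 95% interval as a line) for the 42 tested Rab genes, in blocks by the membrane they serve; orange marks an unadjusted p under 0.05. Rab7 at -0.84 and Rab12 at -0.64 lead the late endosomal block, and all 6 exocytic Rab genes lie at or just above 0.

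The late endosome, lysosome and autophagy group had the lowest median of the 5 groups. Of its 11 members 7 were tested, 6 were lower and 1 higher, and the median log2 fold change was -0.26. So 85.7% were lower, against 47.8% of all genes tested. Its unadjusted calls were Rab7 and Rab12, both lower, 28.6% of the 7 against 2.26% of all genes tested. These shares rest on 7 genes, and the role lists were chosen with earlier results of these data known.

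Rab7 drives the maturation of late endosomes and the fusion of endosomes and autophagosomes with lysosomes. Its signals were 3267, 2760, 3676 and 3433 on the WT arrays and 2044, 1694, 1827 and 1742 on the GRKO arrays. Every GRKO array was below every WT array. The means were 3284 ± 388 and 1827 ± 155 (SD, n = 4 each), and limma gave a log2 fold change of -0.84 ± 0.13 (SE), 1.79-fold lower, with a 95% interval of -1.14 to -0.55 (unadjusted p = 5.95e-05, adjusted p = 0.0822). The adjusted p ran from 0.0183 to 0.999 over 19 other settings. It passed the threshold with quantile normalization (0.0435) and with array weights (0.0183), and was highest with median centring, where the log2 fold change was -0.81 (unadjusted p = 0.00161).

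A second Rab7 probe set, 1448159_at, showed the same direction. Its signals were 323, 288, 489 and 500 in WT and 267, 130, 128 and 187 in GRKO, again without overlap. Its log2 fold change was -1.19 ± 0.27 (SE, unadjusted p = 0.000909), and its adjusted p over all probe sets was 0.699. Whether the 2 probe sets read the same part of the transcript was not examined here.

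Rab12 guides recycling endosome cargo, such as the transferrin receptor, to lysosomes and takes part in autophagy. Its signals were 1104, 909, 1084 and 933 in WT and 717, 780, 517 and 591 in GRKO. The groups did not overlap, and the lowest WT array stood above the highest GRKO array. The means were 1008 ± 101 and 651 ± 119 (SD, n = 4), a log2 fold change of -0.64 ± 0.16 (SE, unadjusted p = 0.00166, adjusted p = 0.704). Its dimmer probe set, 1457783_at, had a log2 fold change of -0.49 ± 0.29 (SE), with signals of 65, 84, 72 and 97 in WT and 71, 91, 40 and 38 in GRKO, which overlapped.

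The promoters of the 2 late endosomal genes whose groups did not overlap, Rab7 and Rab12, are shown first, followed by that of Rab5c, the Rab gene with the highest log2 fold change. They are RefSeq sequences of build GRCm38.p6, each from 250 bases before the transcript start to 50 bases after it, written 5′ to 3′ on the gene's own strand, which is the minus strand for all 3. They lie at chr6:88045221-88045520 (Rab7, the outer of its 2 listed starts), chr17:66519621-66519920 (Rab12) and chr11:100738166-100738465 (Rab5c). Capitals mark matches, on either strand, to the GC box GGGCGG or to the glucocorticoid receptor half-site AGAACA, which reads TGTTCT on the other strand.
Rab7: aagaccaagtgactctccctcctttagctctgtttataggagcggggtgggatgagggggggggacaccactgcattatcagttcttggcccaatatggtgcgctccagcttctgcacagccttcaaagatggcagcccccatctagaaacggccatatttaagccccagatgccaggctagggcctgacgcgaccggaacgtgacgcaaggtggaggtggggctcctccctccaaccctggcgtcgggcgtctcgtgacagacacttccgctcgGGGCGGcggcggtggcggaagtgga
Rab12: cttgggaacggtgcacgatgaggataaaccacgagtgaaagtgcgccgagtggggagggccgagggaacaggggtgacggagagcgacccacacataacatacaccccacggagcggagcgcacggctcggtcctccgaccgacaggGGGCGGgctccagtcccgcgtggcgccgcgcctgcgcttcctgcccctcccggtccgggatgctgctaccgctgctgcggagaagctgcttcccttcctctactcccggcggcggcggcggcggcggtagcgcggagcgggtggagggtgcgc
Rab5c: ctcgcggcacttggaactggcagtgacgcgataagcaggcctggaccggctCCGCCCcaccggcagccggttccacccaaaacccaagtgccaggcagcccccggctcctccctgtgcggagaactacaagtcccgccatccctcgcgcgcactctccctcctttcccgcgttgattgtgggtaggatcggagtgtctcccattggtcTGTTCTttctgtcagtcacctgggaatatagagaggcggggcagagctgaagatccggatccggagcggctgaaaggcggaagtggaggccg
The printed Rab7 window and the Rab12 window hold 1 GC box each and no AGAACA. The window of the other listed Rab7 start, not printed, holds 3 GC boxes and no AGAACA. The Rab5c window holds 1 GC box, read on the opposite strand, and 1 half-site, which starts 42 bases before the transcript start (position -42). A match is a description of letters, not a binding site, and a missing match says only that these letters are not in this window.

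The other late endosomal genes were nearer to 0 or more variable. Rab9, which returns mannose 6-phosphate receptors from late endosomes to the trans-Golgi, had signals of 242, 141, 181 and 320 in WT and 226, 141, 147 and 154 in GRKO, with overlap and a log2 fold change of -0.36. Rab7b, a relative of Rab7 on the route from endosomes to the trans-Golgi, was at -0.26 with a 95% interval of -0.97 to 0.46. Rab29 and Rab24 stood at -0.06 and -0.05. Rab38, which with Rab32 serves lysosome-related organelles such as melanosomes, was the only one of the 7 that was higher. Its signals were 36, 38, 36 and 37 in WT and 48, 56, 48 and 34 in GRKO (log2 fold change 0.32 ± 0.21, SE, unadjusted p = 0.161). They came from an _x_at probe set, whose probes can also bind other transcripts.

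**Figure D2:**
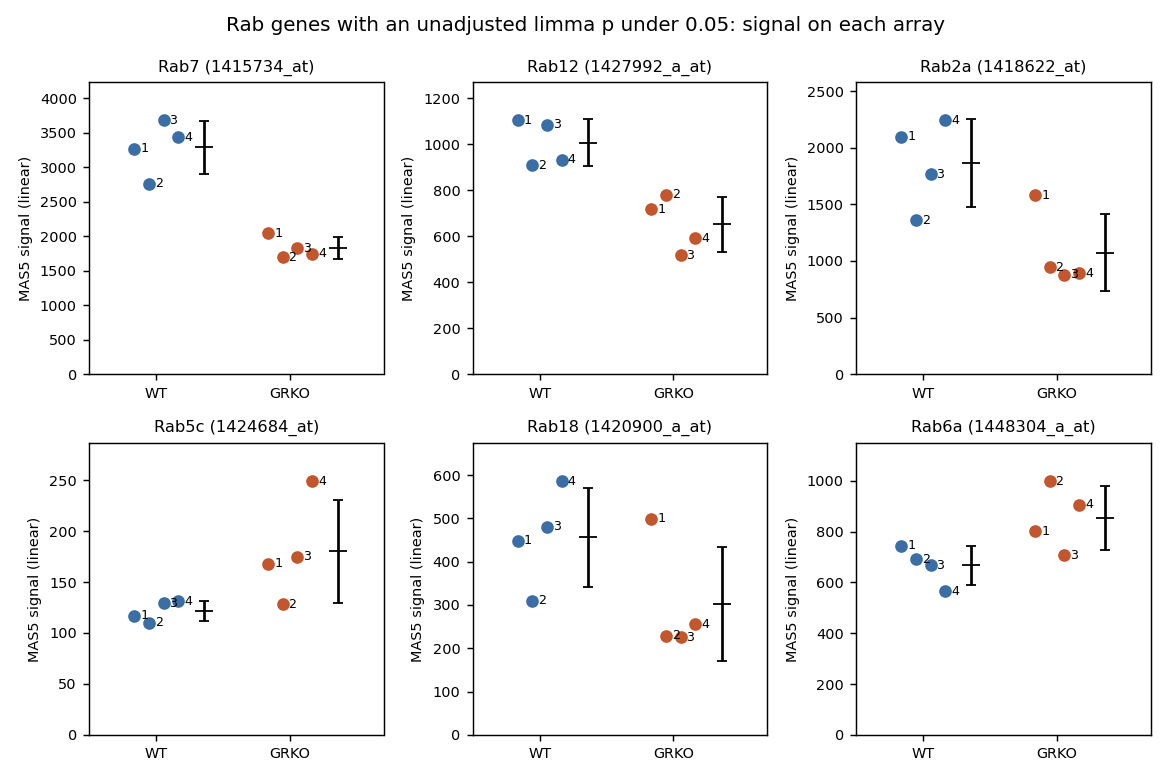
Signal on each array (y axis, linear MAS5 signal from 0) for the 6 Rab genes with an unadjusted p under 0.05, with replicate numbers beside the points and mean ± SD beside each group. Rab7 and Rab12 are the genes whose WT and GRKO points do not overlap, and GRKO 1 stands above the other GRKO arrays for Rab2a and Rab18.

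In the group of the endoplasmic reticulum, Golgi and lipid droplet, 12 of 14 members were tested, 8 were lower and 4 higher, with a median of -0.04. It held genes at both ends of the family. Rab2a and Rab18 were among the lowest, and Rab6a was the second highest after Rab5c.

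Rab2a acts between the endoplasmic reticulum and the Golgi and also in fusion of autophagosomes with lysosomes. Its signals were 2096, 1361, 1765 and 2241 in WT and 1581, 946, 878 and 889 in GRKO. The groups overlapped through 1 array, GRKO 1, which was above WT 2. The log2 fold change was -0.82 ± 0.22 (SE, unadjusted p = 0.00322, adjusted p = 0.777). Without GRKO 1 it was -1.02. The gene has 7 probe sets, and they disagreed: 5 further ones passed the signal filter, at -0.29, -0.65, 0.10, -0.36 and -0.25. With all its probe sets averaged the log2 fold change was -0.21, a mean that includes 1436477_x_at, below the filter, at 0.82.

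Rab18 is found on lipid droplets and the endoplasmic reticulum. Its signals were 448, 310, 481 and 586 in WT and 499, 229, 226 and 255 in GRKO. GRKO 1 alone lay within the WT range, and the other 3 GRKO arrays lay below it. The log2 fold change was -0.64 ± 0.27 (SE, unadjusted p = 0.0359, adjusted p = 0.880), and -0.91 without GRKO 1. Without any 1 of WT 1, WT 3, WT 4, GRKO 2, GRKO 3 or GRKO 4, the unadjusted limma p exceeded 0.05, with a maximum of 0.102. The dimmer Rab18 probe set was at -0.37 ± 0.26 (SE).

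Rab6a, which moves cargo backward through the Golgi and outward to the surface, was higher. Its signals were 744, 692, 667 and 565 in WT and 802, 999, 707 and 907 in GRKO, and only GRKO 3 lay within the WT range. The log2 fold change was 0.35 ± 0.15 (SE, unadjusted p = 0.0367, adjusted p = 0.880). Without any 1 of WT 2, WT 3, WT 4, GRKO 2 or GRKO 4, the unadjusted limma p exceeded 0.05, with a maximum of 0.113. Its other probe sets did not show a shift of that size, at 0.0026 and 0.12, so the value rests on 1448304_a_at. Rab6b, its close relative, had 92, 122, 72 and 90 in WT and 112, 126, 108 and 112 in GRKO, a log2 fold change of 0.31 (unadjusted p = 0.111). The further Rab6b probe sets above the filter were also higher, at 0.46, 0.50 and 0.66, each with an unadjusted limma p above 0.05. They were dim, with geometric means of 21.3 to 29.0.

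The remaining 8 tested members of the group lay between -0.21 and 0.22 in log2 fold change and overlapped between the groups. Rab1a and Rab1b, which carry vesicles from the endoplasmic reticulum to the Golgi, had -0.12 and 0.21. Rab30 was the lowest of the 8 at -0.21, and Rab36 the highest at 0.22, both with dim signals of 20 to 36 and 26 to 64. Rab43, Rab33b, Rab2b and Rab34 stood at -0.07, -0.05, -0.03 and -0.02.

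Of the 16 early and recycling endosome genes 13 were tested, 9 were lower and 4 higher, and the median was -0.06. For 10 of them the log2 fold change was under 0.2 in size. Rab5c, one of 3 isoforms that govern fusion of early endosomes, was the exception on the high side. Its signals were 117, 110, 129 and 131 in WT and 168, 128, 175 and 249 in GRKO. GRKO 2 lay among the WT arrays, and the other 3 lay above them all. The log2 fold change was 0.53 ± 0.19 (SE, unadjusted p = 0.0204, adjusted p = 0.880), and 0.36 without GRKO 4, its brightest array, where the unadjusted limma p was 0.0670. Without WT 2 that p was 0.0510. It has 1 probe set, so no second reading exists here.

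The other Rab5 isoforms did not share that value. Rab5a had signals of 369, 128, 197 and 578 in WT and 490, 188, 196 and 261 in GRKO, the widest spread of any tested Rab gene in WT, and a log2 fold change of -0.05 with a 95% interval of -1.01 to 0.92. Rab5b had -0.07. Rab4a, which returns receptors quickly from early endosomes to the surface, had 207, 364, 230 and 105 in WT and 123, 133, 144 and 200 in GRKO. The log2 fold change was -0.49 ± 0.32 (SE, unadjusted p = 0.154) and moved to -0.21 without WT 2 and to -0.81 without WT 4. Its second probe set was at -0.42, and its brightest is an _s_at probe set, which can read more than 1 transcript. Rab21, a Rab of integrin traffic, had 269, 280, 345 and 263 in WT and 322, 233, 204 and 232 in GRKO, with a log2 fold change of -0.24 ± 0.17 (SE, unadjusted p = 0.186).

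Rab11a and Rab11b, markers of the recycling endosome, were at -0.14 and 0.15. Rab14, which with Rab4 and Rab11 handles endosomal GLUT4, was at -0.06 with 1108, 1011, 880 and 1062 in WT and 1145, 859, 1022 and 879 in GRKO. Rab22a, Rab35 and Rab15 were at -0.13, -0.13 and -0.02, and Rab31 and Rab4b at 0.12 and 0.18. The 95% intervals of these 8 genes all included 0, and the number of arrays limits their precision.

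The exocytosis and GLUT4 traffic group had 12 members, of which 6 were tested. All 6 were higher by sign, as were 5770 of all 11062 genes tested. None of the 6 passed even the unadjusted threshold, and their median was 0.09. Rab10, which in fat cells brings GLUT4 vesicles to the plasma membrane downstream of the GTPase-activating protein Tbc1d4, had 4270, 4161, 3525 and 4948 in WT and 3803, 5440, 4636 and 4352 in GRKO. The ranges overlapped widely, and the log2 fold change was 0.11 ± 0.16 (SE, 95% interval -0.23 to 0.45, unadjusted p = 0.504). A further Rab10 probe set, 1422664_at, was at -0.29, and the averaged probe sets gave -0.03. Rab8a and Rab13, which act on GLUT4 in muscle cells, were at 0.05 (95% interval -0.33 to 0.43) and 0.07 (-0.25 to 0.39), and Rab8b was at 0.03.

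The highest of the 6 was Rab3a, which acts in regulated secretion and at synapses. It had 501, 612, 477 and 421 in WT and 503, 597, 635 and 615 in GRKO, a log2 fold change of 0.23 ± 0.15 (SE, unadjusted p = 0.144). Its brightest probe set is of the _x_at kind, and its second one was at -0.06. Rab3d, the Rab3 form of secretory granules, had 63, 79, 74 and 48 in WT and 51, 81, 81 and 87 in GRKO (log2 fold change 0.18 ± 0.23, SE), and 1 of its further probe sets was at -0.18. So the shared sign of the group did not hold across probe sets for Rab10, Rab3a and Rab3d.

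The last group held 6 genes of the cilium and other sites, of which 4 were tested. All 4 were within 0.2 of 0. Rab23, a regulator of Hedgehog signalling at the cilium, had 64, 69, 81 and 61 in WT and 66, 57, 54 and 65 in GRKO (log2 fold change -0.18 ± 0.17, SE, unadjusted p = 0.313). Averaging all its probe sets gave 0.05, but the further ones, 1422399_a_at (-0.74) and 1454876_at (1.07), lay below the filter. Rab40b, a Rab with a SOCS box that binds a ubiquitin ligase, had 118, 100, 99 and 87 against 134, 77, 77 and 91 (-0.12 ± 0.20, SE). Rab28 had 654, 541, 657 and 594 against 627, 560, 591 and 609, the narrowest GRKO spread of the tested family, and -0.03 ± 0.12 (SE). Rab40c was at 0.0043.

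The 17 Rab genes below the filter were Rab17, Rab19, Rab20, Rab25, Rab26, Rab27a, Rab27b, Rab32, Rab33a, Rab37, Rab39, Rab39b, Rab3b, Rab3c, Rab42, Rab44 and Rab9b. Their signals lay between 1 and 35 on all 8 arrays, and no fold change is read from them. Several are known from other tissues, such as Rab3b and Rab3c of neurons, Rab27a and Rab27b of secretory cells and Rab17 and Rab25 of epithelia. The brightest below the filter signal of 19.4 were Rab27a, Rab42 and Rab20, with geometric means of 17.5, 15.6 and 12.6. The dimmest above it were Rab30, Rab2b and Rab36, at 26.7, 35.1 and 38.4.

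Across the 8 arrays the family did not move as a block. The median Rab signal, centred on each gene's mean log2 signal, was 0.02, 0.01, 0.12 and -0.08 on WT arrays 1 to 4 and 0.05, -0.05, -0.06 and 0.01 on GRKO arrays 1 to 4. These values overlapped between the groups. Within a group, the median SD of log2 signal over the 42 genes was 0.22 in WT and 0.24 in GRKO. The single array farthest from the gene's mean over all 8 arrays was WT 4 for 10 genes and WT 3 for 8.

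**Figure D3:**
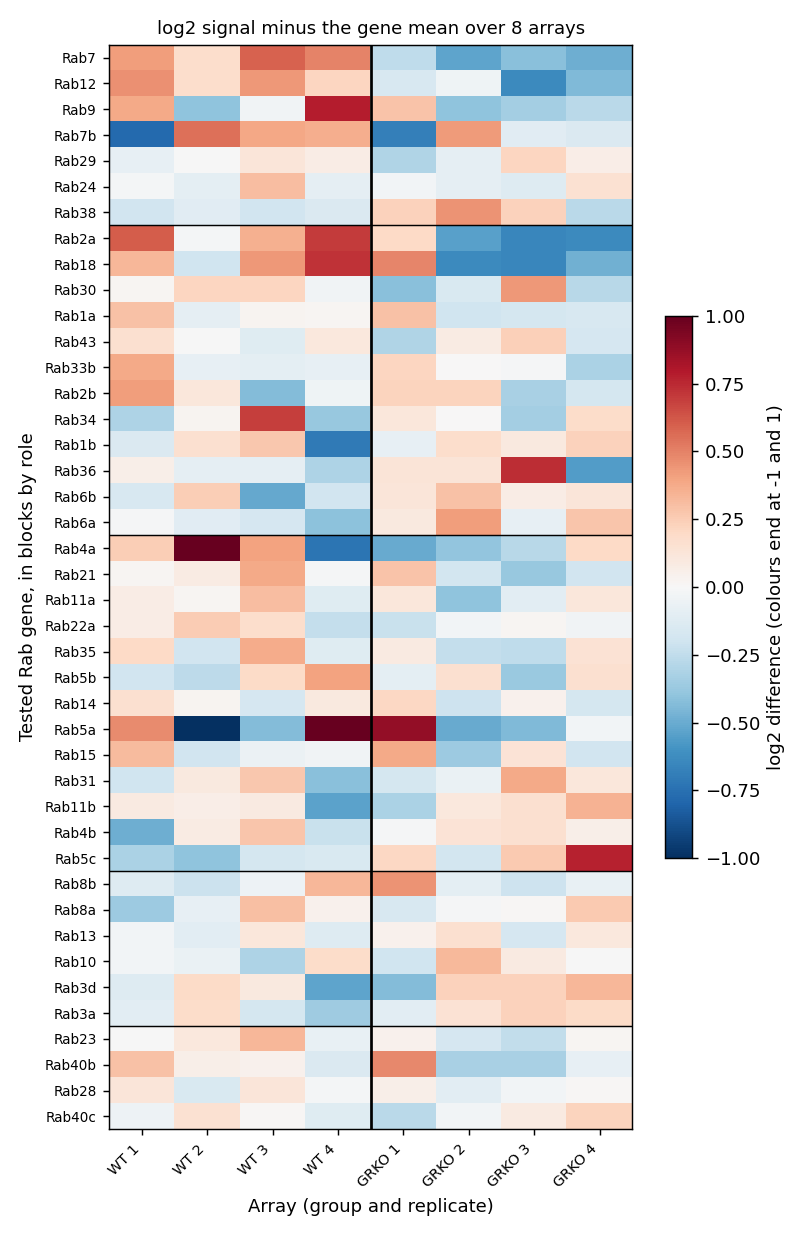
Log2 signal minus the gene's mean over the 8 arrays (colour, ends at -1 and 1) for the 42 tested Rab genes, in the same role blocks, with WT arrays left of the thick line and GRKO arrays right of it. Rab7 and Rab12 are lower on all 4 GRKO arrays, while Rab2a, Rab18, Rab9 and Rab5a are high on WT 4 and on GRKO 1.

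Rab2a, Rab18, Rab5a, Rab9 and Rab8b each had their highest WT signal on WT 4 and their highest GRKO signal on GRKO 1. These names were picked after their values were seen. They are 11.9% of the 42, against 19.8% of all genes tested with both maxima on these arrays, a share below the background. Of the 4 pairs of Affymetrix control probe sets compared at the 3′ and 5′ ends of a transcript, the transferrin receptor pair had its highest ratios on the same arrays, 9.40 on GRKO 1 and 6.38 on WT 4 against 2.22 to 4.33 elsewhere, from dim 5′ signals of 5 and 8 there. The Gapdh ratio was also highest on WT 4, at 1.20 against 0.797 to 0.915 on the other arrays, with 0.885 on GRKO 1. Over the 8 arrays the beta-actin ratio was 0.991 to 1.84, highest on GRKO 3. The pyruvate carboxylase ratio was 19.6 to 42.3, highest on WT 1. WT 4 also had the highest median over the 64 Affymetrix control probe sets, 7.06 on the log2 scale against 5.87 to 6.41 elsewhere. These controls include the pairs above. The part of RNA quality or of these arrays in the Rab2a and Rab18 values was not tested beyond the fits without 1 array. Rab7 kept its groups apart on all arrays, with log2 fold changes of -0.92 to -0.79 when any 1 array was left out.

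Most Rab genes have more than 1 reading on the array. The 59 genes have 132 probe sets, 38 genes have more than 1, and 86 probe sets were above the filter. For the 26 tested genes with a further probe set above the filter, 36 of 44 further probe sets had the same sign as the brightest one, and for 18 of the 26 genes all of them did. The 8 with an opposite sign belonged to Rab10, Rab14, Rab22a, Rab2a, Rab3a, Rab3d, Rab40c and Rab43. Among these 44 further probe sets, an unadjusted limma p under 0.05 was found only for 1448159_at of Rab7 and 1419945_s_at of Rab2a (log2 fold change -0.65, unadjusted p = 0.00787). Both were lower. By brightest probe sets, 2.26% of all genes tested were lower and 2.37% higher at that threshold.

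**Figure D4:**
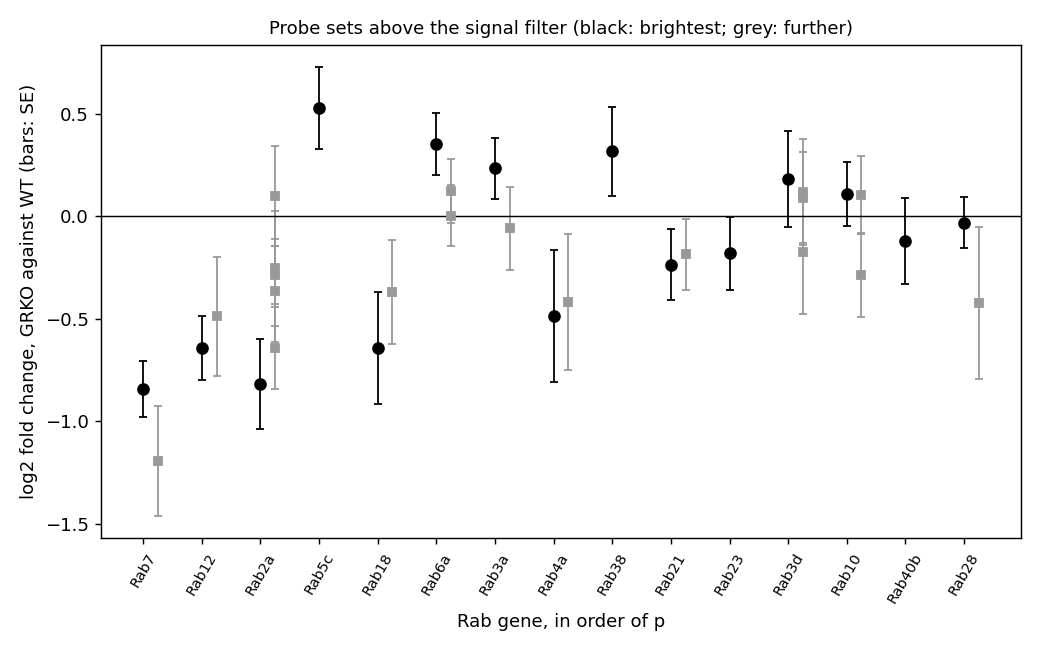
Log2 fold change of GRKO against WT (y axis, bars are SE) for the brightest probe set (black) and the other ones that passed the filter (grey) of 15 named Rab genes, in order of p. Both Rab7 probe sets lie well below 0, while the further Rab6a probe sets lie closer to 0 than the brightest and those of Rab2a run from -0.65 to 0.10.

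Close relatives were compared by their log2 ratio within each array. This was done for 9 pairs, chosen after the values had been seen, so the changes are given as a description. The ratio of Rab2a to Rab2b differed by -0.79 between GRKO and WT, that of Rab5c to Rab5b by 0.60 and that of Rab7 to Rab7b by -0.58. All 9 ratios overlapped between the groups.

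The proteins that load, unload and use Rabs were read from 4 lists with 139 genes, of which 115 were tested. None passed the adjusted threshold (lowest adjusted p = 0.850), 51 were lower and 64 higher, and at an unadjusted p under 0.05 there were 3 lower (2.61%, against 2.26% of all genes) and 1 higher (0.870%, against 2.37%), shares near or under the background. The median log2 fold change was 0.03. Among lipidation and recycling factors 6 of 8 were tested, with 3 lower and 3 higher. Rabif, a chaperone of exocytic Rabs, had 110, 104, 107 and 106 in WT and 94, 55, 73 and 88 in GRKO, without overlap (log2 fold change -0.49 ± 0.19, SE, unadjusted p = 0.0228). Rabggtb, the catalytic subunit of the enzyme that attaches the lipid anchor, was at -0.32, Rabggta, its partner, at 0.10, and Chm, the escort protein that presents Rabs to it, at 0.18.

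Of 40 exchange factors 37 were tested, with 16 lower and 21 higher, and none had an unadjusted p under 0.05. The 4 with the smallest p were Dennd5a at 0.33, Rab3il1 at 0.35, Gapvd1, an exchange factor for Rab5, at 0.25 and Dennd4a, an exchange factor for Rab10, at -0.49. The complex that activates Rab7, made of Mon1a or Mon1b with Ccz1, was singled out after its values were seen. Mon1a had a log2 fold change of 0.06, Mon1b -0.26 and Ccz1 -0.13, all with overlapping groups.

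Of the 34 GTPase-activating proteins 30 were tested, with 11 lower and 19 higher and a median of 0.09. Tbc1d19 had an unadjusted p of 0.0474 (log2 fold change -0.36 ± 0.16, SE), and Sgsm2, Rabgap1 and Tbc1d23 were at 0.73, -0.30 and -0.74 with overlapping groups. Tbc1d1 and Tbc1d4, which hold back GLUT4 traffic until insulin or contraction releases it, were also singled out after their values were seen, at 0.0050 and -0.35, again with overlap.

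Of 57 effectors 42 were tested, 21 lower and 21 higher. Sytl2, a Rab27 effector of secretory granules, had 42, 41, 47 and 47 in WT and 94, 57, 62 and 68 in GRKO, and every GRKO array was above every WT array (log2 fold change 0.64 ± 0.20, SE, unadjusted p = 0.00812, adjusted p = 0.850). Rilpl1, a RILP-like protein that binds phosphorylated Rab8 and Rab10, had 2375, 2046, 1961 and 2380 in WT and 1553, 1539, 1863 and 1739 in GRKO, with every GRKO array below (log2 fold change -0.39 ± 0.13, SE, unadjusted p = 0.0127). Among the 115 tested regulators and effectors, only Rabif and Rilpl1 had every GRKO array below, and only Sytl2 had every one above. Of all 11062 genes tested, 1.29% lay fully below and 1.28% fully above, so such separation is not particular to these lists. The Rab11 effectors Rab11fip3 and Rab11fip5 were at -0.32 and 0.27. Rilp, the effector that joins Rab7 to the dynein motor, was singled out after its value was seen and was at 0.21 with overlapping groups.

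The promoters of the family were searched for short motifs on both strands. The promoter set used here covered 48 of the 59 genes, with 60 windows in all. The GC box GGGCGG stood in 41 of these 60 windows (68.3%), against 35.7% of 32851 promoters of the same length. The half-site AGAACA stood in 11 (18.3%, from 10 genes), against 19.0% of all. The spaced pair ACANNNTGT, which holds the core of a full receptor element, stood in 1 window, of Rab15 (1.67% against 6.85%). The E-box CACGTG, of which members of the TFEB family bind an extended form, stood in 6 (against 7.15% of all), those of Rab20, Rab21, Rab23, Rab24, Rab27a and Rab5a. Of the 6 genes with an unadjusted p under 0.05, Rab12 and Rab5c have the windows printed above, and Rab7 has 1 of its 2 printed there. Rab6a has no match to any of the 4 motifs, and Rab2a and Rab18 are not among the 48.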

How the data were processed

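Total RNA of 8 gastrocnemius samples was labelled with biotin and hybridised to Affymetrix arrays. The deposited signal intensities are linear MAS5 values, as the submitters' processing notes name that tool. The sources used here do not give its version or scaling target. The arrays had been scaled before deposit, with a mean without the outer 2% of values of 99.96 on each. Of 45101 probe sets, 64 were controls. Of the other 45037, 34945 had 1 gene symbol, 932 several and 9160 none, and 34741 of the single-gene ones matched RefSeq by gene identifier.

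Signals were taken to log2 with no pseudocount, a 0 being set to the smallest positive value of its array (1 value among those tested). Each gene was read from its brightest probe set, and genes were tested when their mean log2 signal exceeded that of the median probe set (signal 19.4). Groups were compared with limma 3.58.1 (lmFit, then eBayes with trend; R 4.3.3), two-sided, with Benjamini-Hochberg adjustment over 11062 genes and a threshold of 0.05. Probe sets other than the brightest were read from a separate fit of all probe sets above the filter. Files were handled with Python 3.11.15. Only the limma comparison was tested on simulated data. Precision is limited by 4 arrays per group, and no pair of arrays held identical values.

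The Rab genes, their role lists, the lists of regulators and effectors, the marker lists and the tests were chosen with earlier results of these data known. The text names Rab7, Rab genes with an unadjusted p under 0.05, the 3 of each role with the smallest p, their further probe sets, up to 4 genes with the smallest p of each regulator list and the probe sets of Nr3c1. Other Rab genes are covered by counts, ranges or log2 fold changes, except that Rab9, Rab6b, Rab5a and Rab14, picked after their values were seen, are given with the signal of every array. Alternatives were quantile normalization, median centring, pseudocounts of 6 and 16, no filter, a filter at the 70th percentile, averaged probe sets, a robust prior, eBayes without trend, a replicate block, array weights and leaving out each array.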

Additional observations from a re-analysis of the deposited data

Results flagged for a closer look

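In 5 of 62 combinations of gene and group, over 31 named genes, 1 array lay far from the other 3 of its group. Chance alone gives this for about 1 in 20 groups. On array GRKO 1, Rab2a had a signal of 1581, against 878 to 946 on the other GRKO arrays. On the same array Rab18 had 499, against 226 to 255, and Rab3d had 51, against 81 to 87. Among the regulators, Rabggtb had 164 on array WT 2, against 311 to 346, and Chm had 145 on array WT 3, against 168 to 170.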

How the results depend on the processing

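Across 19 alternatives 1 Rab gene, Rab7, passed the adjusted threshold with quantile normalization (log2 fold change -0.88, adjusted p = 0.0435) and with array weights (-0.85, adjusted p = 0.0183), and 0 did in the other 17. Leaving out each array gave 0 each time, and Rab7 log2 fold changes of -0.92 to -0.79. The count of Rab genes at an unadjusted p under 0.05, 6 as reported, ran from 3 (without GRKO 4) to 7 over the fits without 1 array and from 4 to 8 over the rest. The number of genes called among all tested ran from 0 to 10. With all probe sets of a gene averaged, including those below the filter, Rab23 was at 0.049 and Rab10 at -0.026. Both were opposite in sign to the reported values, and the further Rab23 probe sets lay below the filter. Rab28 was at 0.0019 without WT 1 and 0.0041 without WT 3, and ran from -0.089 to 0.0041 over the fits without 1 array. Single further probe sets had the opposite sign for Rab2a (0.10), Rab3a (-0.060), Rab3d (-0.18) and Rab10 (-0.29). The cause of these differences was not tested. The Rab median stayed between -0.08 and -0.01, and 0 regulators or effectors passed in any of the 19. After each gene's group mean was subtracted, same-numbered arrays correlated at -0.19, 0.18, 0.11 and -0.39. With 4 arrays per group these values cannot decide whether the numbers pair the samples. With a replicate block, 0 Rab genes passed the adjusted threshold, and 5 passed the unadjusted one, Rab6a no longer among them. Rab6a also missed it with median centring, eBayes without trend and averaged probe sets, Rab18 with eBayes without trend, and Rab2a with averaged probe sets. With the replicate block Rab7 had a limma adjusted p of 0.430. Signals near the filter are close to background, so log2 fold changes of dim members such as Rab30, Rab36 and Rab38 are the least certain.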
